A study of Arabidopsis thaliana with 12 samples.

Results

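The response of Arabidopsis thaliana seedlings to the volatiles of a bacterium was compared between 2 genotypes, gene by gene, as the change with volatiles in the insertion line gp1-2 minus the change with volatiles in wild type. This difference of changes is called the interaction here, and on the log2 scale a value above 0 means that a gene rose more, or fell less, in gp1-2 than in wild type. All 12 of the 12 libraries entered the comparison, and 580 of 20736 genes tested (2.80%) passed it at an adjusted p under 0.05. Of these, 306 had an interaction above 0 (1.48% of genes tested) and 274 below 0 (1.32%).

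RNA was sequenced from full seedlings of Col-0, the wild-type accession, and of gp1-2, the T-DNA insertion line SAIL_209_D07 in the same background. Seedlings of both genotypes grew at 22 °C on MS medium with 1% sucrose, with a day of 16 h and a night of 8 h, were moved at an age of 5 days to divided plates and were harvested at 7 days. During the last 2 days the plate carried either GB03, a growth-promoting Bacillus strain that shares the plate's air with the plants, or no bacteria. Each of the 4 groups (wild type without bacteria, wild type with volatiles, gp1-2 without bacteria, gp1-2 with volatiles) held 3 libraries that the series describes as biological replicates. The gp1-2 genotype is represented by 1 insertion line, and the labels do not name the locus that it disrupts. The title of the series names a stearoyl-ACP desaturase, the plastid enzyme that puts the first double bond into stearic acid.

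Plants read volatile and microbial cues through the same hormone pathways that control defence. Salicylic acid induces pathogenesis-related proteins, jasmonate works by destroying JAZ repressors, and abscisic acid works by inhibiting a family of protein phosphatases. In Arabidopsis, plants with low stearoyl-ACP desaturase activity are known for constitutive defence and small size, and many transcripts here differed between the genotypes before treatment. A response is therefore given beside the level it started from.

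Library totals ran from 11158051 to 15839067 counts in wild type and from 17908408 to 25214934 in gp1-2, so every gp1-2 library was deeper than every wild-type one. Replicates of a group differed by more than counting noise, with a chi-square per degree of freedom of 2.62 to 15.9 for pairs of libraries, and no pair was treated as the same library. Each pair that included replicate 3 had a value of at least 9.62, and leaving out replicate 3 of every group gave 831 genes with an interaction. Green tissue, root and dividing-cell markers were present in each library. Summed CPM (counts scaled to a common library size) of 14 root hair genes ran from 175.5 to 267.9 over the 12 libraries and those of 15 endodermis genes from 210.2 to 264.9, and none of these 29 genes had an interaction (0 also at an unadjusted p under 0.05, by edgeR). Because these are bulk seedlings, fewer cells of a type and less RNA per cell cannot be told apart.

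The 580 genes fell into classes by which genotype responded. A response was lost where wild type passed the test and gp1-2 did not (185 genes, 89 of them rises and 96 falls), and gained where gp1-2 passed and wild type did not (167 genes, 88 rises and 79 falls). In 78 genes both genotypes passed with opposite signs, 27 turning from a rise in wild type to a fall in gp1-2 and 51 from a fall to a rise. In 73 genes the response had the same sign and was stronger in gp1-2, and in 77 it was weaker. For background, 30.1% of genes tested responded to volatiles in wild type and 32.3% in gp1-2. The absolute interaction of the 580 genes had a median of 0.90, and in 247 of them it was at least 1. Because the classes rest on thresholds, a lost response can still have a small change in gp1-2: the median log2 fold change of the lost rises was 0.76 in wild type and -0.07 in gp1-2, and that of the lost falls was -0.99 and 0.02. The total of 580 depends on single libraries, falling to 329 without untreated gp1-2 replicate 1, 346 without untreated gp1-2 replicate 2, 354 without treated gp1-2 replicate 1, 343 without treated gp1-2 replicate 2 and 342 without untreated wild-type replicate 2.

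**Figure D1:**
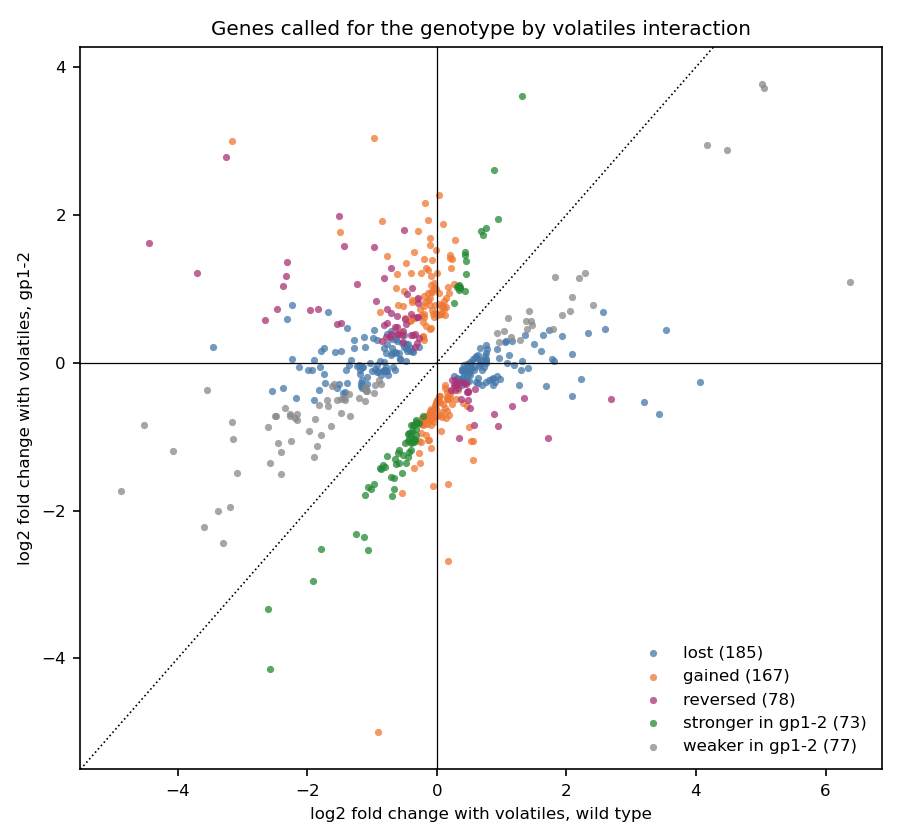
Each point is 1 of the 580 genes with an interaction, placed by its log2 fold change with volatiles in wild type (horizontal) and in gp1-2 (vertical); colours give the 5 response classes with their numbers, and the dotted line marks equal change. The 185 lost responses lie along the horizontal line at 0, the 167 gained ones along the vertical line at 0, and the 78 reversed ones in the upper left and lower right corners.

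The lost rises with the smallest p among those named by rule were WAK2, NAC044, CYP71A12 and HEMA1, which differ in function. WAK2, a wall-associated kinase that binds pectin, stood at 13.7, 11.3 and 12.1 CPM in wild type without bacteria, 38.6, 45.1 and 47.3 with volatiles, 158, 148 and 130 in gp1-2 without bacteria and 137, 158 and 148 with volatiles. Its rise in wild type was 1.81 ± 0.12 (log2 ± SE, n = 3 libraries a group) and its change in gp1-2 was 0.03 ± 0.10. The interaction was -1.79 (edgeR quasi-likelihood test, adjusted p = 5.39e-05). The wild-type groups did not overlap, the gp1-2 groups did, and every gp1-2 library, treated or not, was above every wild-type library.

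CYP71A12, a cytochrome P450 of the camalexin and indole carbonyl nitrile pathways, had the same layout. It was at 4.80, 5.43 and 7.74 CPM in untreated and 24.2, 24.7 and 25.7 in treated wild type, and at 83.8, 70.6 and 92.0 in untreated and 102, 77.5 and 88.4 in treated gp1-2. Its interaction was -1.96 ± 0.21 (adjusted p = 0.000236). GSTF6, a glutathione transferase of stress responses, rose by 2.34 ± 0.19 in wild type from 22.5 to 41.3 CPM without bacteria to 148 to 201 with volatiles, while gp1-2 was at 1014 to 1287 and 1377 to 1616. In CPM the mean of GSTF6 rose by 136.4 in wild type and was 355.9 higher in treated than in untreated gp1-2. The gp1-2 libraries of all 3 genes were thus above the treated wild type before any treatment. Reads of GSTF6 and of CYP71A12 may be shared with near-identical neighbours, so their levels are uncertain to that extent.

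Other lost rises began above untreated but below treated wild type. AT2G04050, annotated by RefSeq as a MATE efflux family protein, was at 1.08, 1.01 and 1.34 CPM in untreated and 20.2, 15.6 and 20.9 in treated wild type, against 4.08, 5.31 and 4.29 in untreated and 4.45, 3.44 and 3.51 in treated gp1-2. The rise of 4.07 ± 0.20 in wild type faced a change of -0.27 ± 0.17 in gp1-2, an interaction of -4.33 (adjusted p = 1.79e-06). Treated gp1-2 stayed below every treated wild-type library. NAC044, a NAC factor of the DNA damage and heat responses, went from 1.01, 0.94 and 1.24 to 9.54, 11 and 16.4 CPM in wild type and from 7.00, 5.03 and 6.14 to 8.51, 8.12 and 7.99 in gp1-2. Its interaction was -3.11 ± 0.32 (adjusted p = 0.000236), and its treated groups did not overlap.

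HEMA1, the glutamyl-tRNA reductase that commits glutamate to chlorophyll and haem, is a lost rise of the plastid. It was at 109, 100 and 99.3 CPM in untreated and 198, 184 and 176 in treated wild type, and at 156, 161 and 145 in untreated and 140, 135 and 120 in treated gp1-2. The interaction was -1.08 ± 0.12 (adjusted p = 0.000369). Over the 89 lost rises, 21 had an untreated mean in gp1-2 at or above the treated mean of wild type.

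FRO2, the root ferric chelate reductase of iron uptake, was a lost rise on few reads. It was at 1.08, 0.60 and 1.34 CPM in untreated and 14.9, 3.75 and 8.34 in treated wild type, and at 0.35 to 0.99 CPM in the 6 gp1-2 libraries. The interaction was -3.73 ± 0.78 (adjusted p = 0.018), and it was called in 10 of the 12 fits that each left out 1 library. Of the 24 iron deficiency genes tested, 2 were called (8.33%, against 2.80% of genes tested). The other was AT2G30766, which fell by 0.50 on the log2 scale in wild type and rose by 1.79 in gp1-2. AT2G30766 was at 15.2 to 31.9 CPM in the wild-type libraries and at 0.61 to 3.07 in the gp1-2 libraries, so its rise in gp1-2 began from few reads.

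The lost falls named by rule were BCB, RD26, JAZ1 and NHL3, which fell in wild type and did not pass the test in gp1-2. BCB, a blue copper binding protein of stress and lignin metabolism, was at 43.1, 57.7 and 55.1 CPM in untreated and 11.6, 9.28 and 5.82 in treated wild type, against 232, 299 and 296 in untreated and 230, 208 and 196 in treated gp1-2. Its fall in wild type was -2.55 ± 0.19 and its change in gp1-2 -0.38 ± 0.16, an interaction of 2.16 (adjusted p = 0.000369). In CPM the mean of BCB changed by -43.07 in wild type and by -64.38 in gp1-2, so the sign of its interaction is the opposite on that scale. RD26, a NAC factor of dehydration and abscisic acid, went from 29.7, 48.1 and 47.8 to 9.95, 6.32 and 7.95 CPM in wild type and from 41.5, 50.9 and 44.9 to 41.0, 35.9 and 31.4 in gp1-2. The genotypes overlapped for RD26 without bacteria and not with volatiles, and the interaction was 2.03 ± 0.26 (adjusted p = 0.000687).

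JAZ1, a repressor of jasmonate signalling that jasmonate itself induces, was at 68.2, 57.7 and 38.0 CPM in untreated and 22.2, 17.0 and 16.4 in treated wild type, and at 140, 148 and 116 in untreated and 152, 149 and 147 in treated gp1-2 (interaction 1.72 ± 0.24, adjusted p = 0.00134). NHL3, a membrane protein induced in defence, went from 207, 239 and 176 to 99.8, 87.3 and 83.1 CPM in wild type and from 467, 549 and 499 to 543, 502 and 446 in gp1-2 (interaction 1.18 ± 0.17, adjusted p = 0.00143). In both genes the wild-type groups were apart and every gp1-2 library was above every wild-type library.

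The sequences before BCB, RD26 and NHL3 are shown because the lost falls held the W-box core, the letters that WRKY factors bind, in a larger share than all genes. Each line is the 250 bases before the gene's start in RefSeq's TAIR10.1 assembly, read 5′ to 3′ on the gene's strand. Capitals mark TTGAC and ACGCG on either strand, where TTGAC is the W-box core and ACGCG the core bound by calmodulin-binding CAMTA factors. The windows are chr5:6826115-6826364 (plus strand) for BCB, chr4:13709171-13709420 (minus) for RD26 and chr5:1931783-1932032 (minus) for NHL3, and none of them overlaps another annotated gene.
BCB: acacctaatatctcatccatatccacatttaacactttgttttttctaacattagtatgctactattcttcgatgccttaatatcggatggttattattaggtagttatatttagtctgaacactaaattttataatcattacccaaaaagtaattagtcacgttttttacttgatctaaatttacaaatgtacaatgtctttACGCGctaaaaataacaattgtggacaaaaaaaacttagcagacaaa
RD26: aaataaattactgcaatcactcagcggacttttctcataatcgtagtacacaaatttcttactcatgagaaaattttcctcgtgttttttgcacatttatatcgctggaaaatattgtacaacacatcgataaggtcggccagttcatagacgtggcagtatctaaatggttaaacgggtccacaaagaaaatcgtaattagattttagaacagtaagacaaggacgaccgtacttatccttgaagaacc
NHL3: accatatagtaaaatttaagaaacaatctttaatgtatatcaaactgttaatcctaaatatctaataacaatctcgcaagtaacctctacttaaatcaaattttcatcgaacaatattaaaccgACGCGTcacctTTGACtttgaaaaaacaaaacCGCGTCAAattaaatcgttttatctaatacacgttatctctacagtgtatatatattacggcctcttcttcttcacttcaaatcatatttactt

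NHL3 held both motifs, BCB held ACGCG and RD26 held neither. TTGAC was in 62 of the 96 windows of lost falls (64.6%) and in 9371 of the 20653 windows of genes tested (45.4%). Over the other classes its share ran from 32.9% in the gained falls to 66.7% in the weaker rises, with 55.7% in the gained rises and 54.9% in the genes that turned from fall to rise. ACGCG was in 16 of the 96 (16.7%) and in 1546 of the 20653 (7.49%). A TTGAC followed by G also reads TGACG, the core bound by TGA factors, which was counted separately and is not marked. These shares are descriptions of letters in a window and carry no test.

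**Figure D2:**
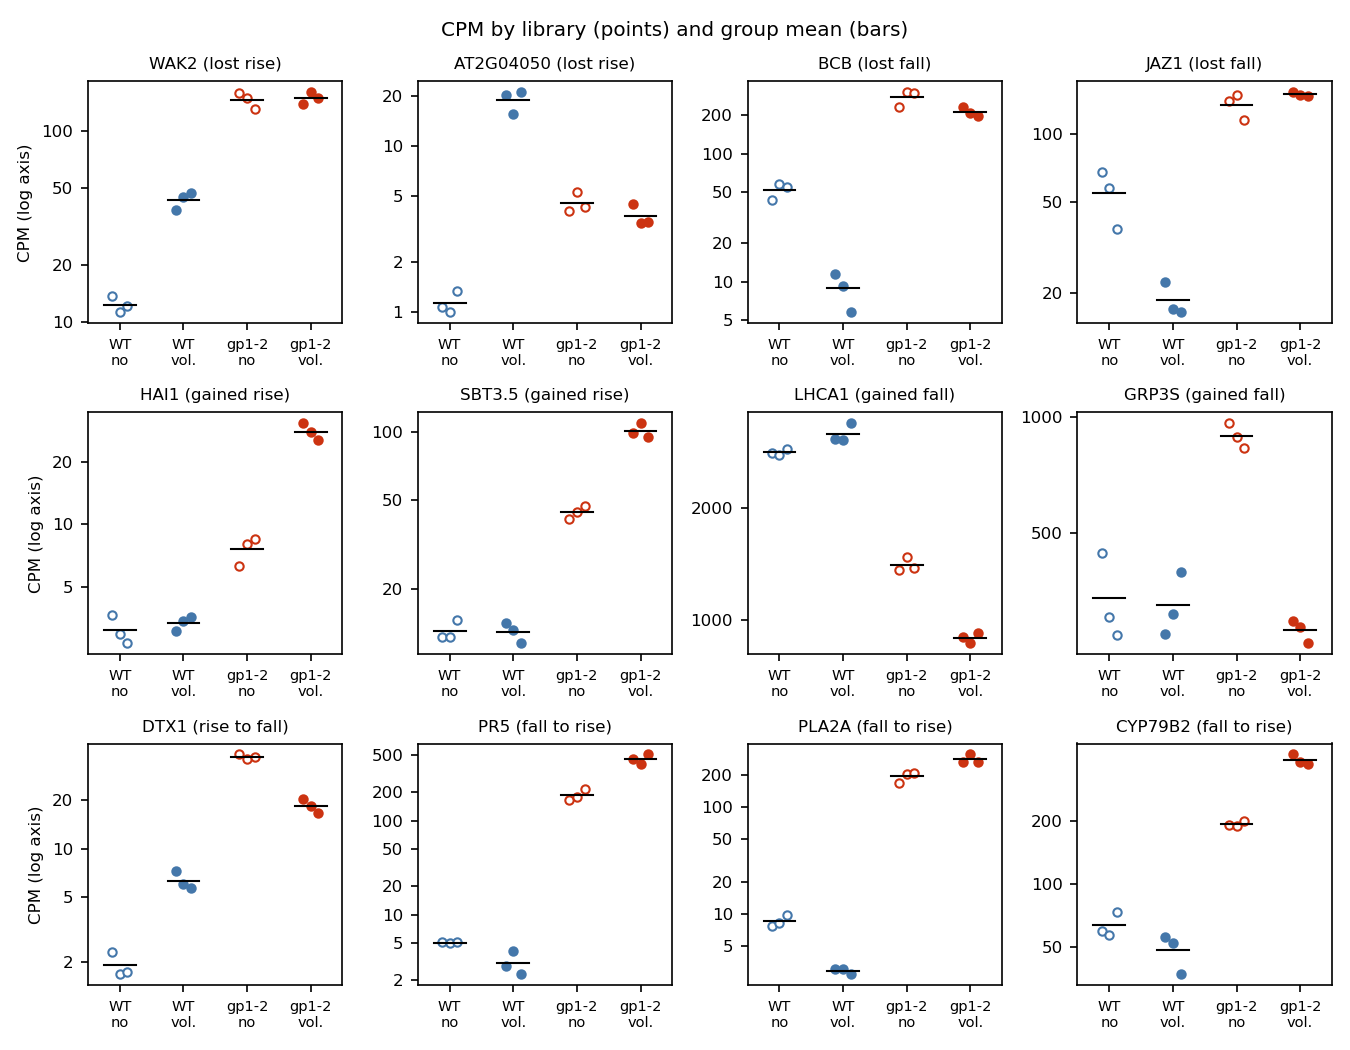
CPM of 12 genes in each of the 12 libraries on log axes, with WT for wild type, "no" for no bacteria and "vol." for volatiles; points are libraries and bars group means. WAK2 rises in wild type and stays level in gp1-2, BCB falls in wild type and passes no test in gp1-2, HAI1 and SBT3.5 rise in gp1-2 and pass no test in wild type, and PR5, PLA2A and CYP79B2 fall in wild type and rise in gp1-2.

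Several jasmonate genes fell in wild type and did not pass as falls in gp1-2. Of 34 jasmonate synthesis, signalling and output genes tested, 10 were called (29.4%, against 2.80% of genes tested), 9 of them with an interaction above 0, and the median interaction was 0.62 against -0.02 over genes tested. The repressors JAZ1, JAZ7 and TIFY7, the lipoxygenase LOX4, the jasmonoyl-isoleucine oxidase CYP94C1 and the hydroxyjasmonate sulphotransferase ST2A fell in wild type. In gp1-2 JAZ7 rose, TIFY7 fell by less, and the other 4 did not pass the test. ST2A was called in 3 of the 12 fits that each left out 1 library and CYP94C1 in 10. VSP1, a vegetative storage protein and classical jasmonate output, fell in wild type from 2.5, 2.08 and 2.29 to 1.2, 1.32 and 1.36 CPM and rose in gp1-2 from 6.23, 7.79 and 10.2 to 16.7, 17.2 and 19.8. Its interaction was 1.97 ± 0.30 (adjusted p = 0.00232), and no groups overlapped.

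JRG21, which RefSeq names a jasmonate-regulated gene, went from 3.31, 2.93 and 6.67 to 45.3, 31.3 and 27.8 CPM in gp1-2 and stood at 0.61 or less in the wild-type libraries. Its interaction of 6.17 ± 1.18 (adjusted p = 0.0109) rests in wild type on a few counts and so has no firm size. AT5G05600, which RefSeq places in a family of iron-dependent oxygenases, fell in wild type from 25.1, 25.2 and 27.7 to 15.1, 14.5 and 16.3 CPM and rose in gp1-2 from 54.7, 50.6 and 57.6 to 86.9, 78.8 and 70.7 (interaction 1.3 ± 0.14, adjusted p = 0.000236). LOX2, the plastid lipoxygenase that feeds jasmonate synthesis, was the member on the other side. It rose in both genotypes, from 125, 105 and 202 to 732, 688 and 683 CPM in wild type and from 404, 412 and 497 to 842, 1236 and 982 in gp1-2. Its interaction was -1.07 ± 0.27 (adjusted p = 0.0472), called in 2 of the 12 fits that each left out 1 library.

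Early stress factors, the transcription factors and calmodulin-like proteins that touch and wounding induce within minutes, mostly fell with volatiles, and the interactions that passed were all above 0. Of the 24 tested, 22 fell in wild type (15.3% of genes tested fell) and 15 in gp1-2 (17.6%). The interaction was called in 6 (25%, against 2.80% of genes tested) and was above 0 in 24 of 24, with a median of 1.57. WRKY33, a WRKY factor of camalexin and fungal defence, was at 339, 280 and 153 CPM in untreated and 33.5, 29.0 and 24.2 in treated wild type, and at 528, 564 and 384 in untreated and 366, 261 and 220 in treated gp1-2. Its interaction was 2.36 ± 0.35 (adjusted p = 0.00227). ERF6, an ethylene response factor of stress and leaf growth, was at 133, 126 and 81.3 CPM in untreated and 14.9, 14 and 11.1 in treated wild type, and at 120, 140 and 106 in untreated and 51.6, 39.0 and 40.1 in treated gp1-2 (interaction 1.60 ± 0.25, adjusted p = 0.00297). The genotypes of ERF6 overlapped without bacteria and stood apart with volatiles.

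These transcripts are quick to move at harvest, and untreated wild-type replicate 3 was the lowest of its group for WRKY33, ERF6, WRKY40 (107, 59.1 and 25.8 CPM) and ERF2 (79.0, 26.6 and 15.3 CPM). Leaving that library out raised the count of early stress factors called from 6 to 11, and it was 3 without treated wild-type replicate 1, 2 or 3 or treated gp1-2 replicate 1, 4 without untreated gp1-2 replicate 1, and 5 to 7 without each of the others. WRKY40 (interaction 2.87 ± 0.54, adjusted p = 0.0104) was called in 12 of those 12 fits and ERF2 (3.13 ± 0.77, adjusted p = 0.0427) in 3. With limma-voom in place of edgeR neither WRKY40 nor ERF2 was called. Of the early stress factors limma-voom called 3 and DESeq2 called 9. Whether handling at harvest differed between the groups was not tested. Among 62 WRKY genes tested, 10 were called (16.1%, against 2.80% of genes tested), 9 with an interaction above 0, and WRKY60 was a lost rise. All 4 ERF-named genes called among 21 tested (19.0%: ERF2, ERF4, ERF6, ERF11) had an interaction above 0. Both families are named because at least 3 of their genes were called, so these counts are no support for the families.

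Among the genes that fell in wild type and rose in gp1-2, the 4 named by rule were PLA2A, DFL1, PRXCB and PR5. PR5, the thaumatin-like marker of salicylic acid, was at 5.07, 4.96 and 5.07 CPM in untreated and 2.80, 4.08 and 2.33 in treated wild type, against 165, 179 and 218 in untreated and 454, 404 and 505 in treated gp1-2. It fell by 0.71 ± 0.20 in wild type on the log2 scale, rose by 1.28 ± 0.13 in gp1-2 and had an interaction of 1.99 (adjusted p = 0.000436). PLA2A, a patatin-like lipid acyl hydrolase induced by pathogens, went from 7.64, 8.18 and 9.75 to 3.00, 3.03 and 2.71 CPM in wild type and from 170, 205 and 208 to 263, 311 and 264 in gp1-2 (interaction 2.06 ± 0.18, adjusted p = 5.84e-05). None of the 4 groups of either gene overlapped. PRXCB, a cell wall peroxidase of the oxidative burst, went from 273, 283 and 320 to 235, 236 and 245 CPM in wild type and from 610, 681 and 748 to 1331, 1257 and 1151 in gp1-2 (interaction 1.17 ± 0.14, adjusted p = 0.000369).

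DFL1, a GH3 enzyme that conjugates auxin to amino acids, reversed without a high start in gp1-2. It was at 66.6, 72.0 and 81.6 CPM in untreated and 55.7, 50 and 54.0 in treated wild type, and at 45.9, 47.0 and 53.0 in untreated and 98.5, 84.3 and 96.1 in treated gp1-2 (interaction 1.4 ± 0.14, adjusted p = 0.000224). It was the 1 gene called among 27 auxin genes tested (3.7%, near the 2.80% of genes tested). Over the 51 genes of this class the median change was -0.70 in wild type and 0.63 in gp1-2.

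Salicylic acid defence as a whole did not lean one way. Of 32 genes tested, 6 were called (18.8%, against 2.80% of genes tested), 3 above and 3 below 0. The median interaction was -0.02. SARD1, above 0, was called in 5 of the 12 fits that each left out 1 library, and NIMIN-2, below 0, in 3. WRKY70, a WRKY factor at the node of salicylic acid and jasmonate, fell less in gp1-2, from 386, 388 and 336 to 246, 216 and 262 CPM, than in wild type, from 46.1, 37.7 and 16.4 to 7.94, 6.12 and 5.95 (interaction 1.72 ± 0.35, adjusted p = 0.0155). ACD6, an ankyrin protein that raises salicylic acid, rose in wild type from 3.45, 3.29 and 2.49 to 3.27, 6.78 and 8.02 CPM and fell in gp1-2 from 356, 341 and 258 to 174, 166 and 186 (interaction -1.81 ± 0.32, adjusted p = 0.00715). The wild-type groups of ACD6 overlapped, since treated replicate 1 was within the untreated range. Of 21 genes of pattern-triggered immunity, 6 were called (28.6%, against 2.80% of genes tested). Of these, 5 were above 0: WRKY33, WRKY22, MPK3, CYP81F2 and YLS9, while CYP71A12 was below 0. Over the 21 the median interaction was 0.445, with 17 values above 0. WRKY22 was called in 1 of the 12 fits that each left out 1 library and CYP81F2 in 11. YLS9, a homologue of the NHL family, went from 29.0, 31.6 and 43.1 to 159, 139 and 113 CPM in gp1-2 and was at 0.13 to 2.39 in wild type (interaction 3.5 ± 0.56, adjusted p = 0.00389). Its lowest wild-type values rest on few reads, so the interaction has no firm size.

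The glucosinolate genes with an interaction belong to the indole branch, which makes sulphur-rich defence compounds from tryptophan. CYP79B2, which turns tryptophan into indole-3-acetaldoxime, was at 59.8, 57.4 and 74.1 CPM in untreated and 56.2, 52.6 and 37.4 in treated wild type, and at 192, 189 and 199 in untreated and 415, 383 and 372 in treated gp1-2 (interaction 1.4 ± 0.19, adjusted p = 0.000877). Its near relative CYP79B3 (0.76 ± 0.15, adjusted p = 0.0124) also reversed, and CYP83B1, the next enzyme (0.58 ± 0.12, adjusted p = 0.0188), was a lost fall. CYP83B1 was called in 10 of the 12 fits that each left out 1 library. CYP79B2, CYP79B3 and CYP83B1 were the 3 genes called of 27 glucosinolate genes tested (11.1%, against 2.80% of genes tested). The chain-elongation and aliphatic core genes MAM1, CYP79F1 and CYP83A1 changed by 1.33, 1.39 and 0.97 in wild type and by 1.34, 1.59 and 0.86 in gp1-2, with interactions between -0.11 and 0.21 that did not pass the test. The wild-type groups of CYP79B2 were close, and its fall there had an adjusted p of 0.0406. IGMT1, an indole glucosinolate methyltransferase, fell in both genotypes, by 2.24 ± 0.12 on the log2 scale in wild type and by 1.05 ± 0.09 in gp1-2 (interaction 1.19 ± 0.15, adjusted p = 0.000782). IGMT1 and IGMT4 are near-identical copies whose reads may be split. Of the 5 IGMT genes tested 3 were called, each above 0, against 2.80% of genes tested. The family is named because at least 3 of its genes were called, so this count is no support for it.

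The leading gained rises were genes of abscisic acid signalling, proteolysis and sugar metabolism, which passed the test for volatiles in gp1-2 and not in wild type. HAI1, a clade A protein phosphatase that brakes abscisic acid signalling and is itself induced by that hormone, was at 3.65, 2.95 and 2.68 CPM in untreated and 3.07, 3.42 and 3.56 in treated wild type, and at 6.28, 8.07 and 8.52 in untreated and 30.6, 27.8 and 25.5 in treated gp1-2. Its interaction was 1.77 ± 0.23 (adjusted p = 0.00071). DIN9, a mannose-6-phosphate isomerase known as a dark-induced gene, was at 2.39 to 3.55 CPM in the 6 wild-type libraries and went from 8.65, 7.46 and 9.52 to 30.6, 27.2 and 24.6 in gp1-2 (interaction 1.79 ± 0.23, adjusted p = 0.00071). DIN9 was the 1 gene called of 19 sugar starvation genes tested (5.26%, against 2.80% of genes tested). Of these 19 genes, 16 fell in wild type (15.3% of genes tested fell) and 17 in gp1-2 (17.6%).

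SBT3.5, a subtilase that processes pectin methylesterases, stayed between 11.4 and 14.5 CPM in the wild-type libraries and went from 40.9, 44.1 and 46.9 to 99.7, 110 and 95.5 in gp1-2 (interaction 1.21 ± 0.15, adjusted p = 0.000534). The serine carboxypeptidase-like gene scpl20 differed in layout: gp1-2 started low, at 11.6, 11.2 and 14.3 CPM, and rose to 22.6, 22.3 and 22.9, within the untreated wild-type range of 18.6 to 24.6 (interaction 1.17 ± 0.16, adjusted p = 0.00134). Heat shock genes added 3 calls of 13 tested (23.1%, against 2.80% of genes tested), each above 0. HSP70 and BAG6, a chaperone regulator, were gained rises and HSP17.4, a small heat shock protein, was a reversal. HSP70 was called in 3 of the 12 fits that each left out 1 library. BAG6 stayed between 13.7 and 18.9 CPM in wild type and went from 15.7, 16.2 and 13.4 to 25.1, 27.6 and 24.0 in gp1-2 (interaction 0.96 ± 0.16, adjusted p = 0.00419).

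Most photosynthesis genes fell with volatiles in gp1-2, while in wild type some rose and some fell. Of 49 tested, 21 were called (42.9%, against 2.80% of genes tested), each with an interaction below 0. The value was below 0 in 49 of 49, with a median of -0.51. In wild type 10 rose (14.8% of genes tested rose) and 8 fell, with a median of -0.04. In gp1-2 38 fell (17.6% of genes tested fell) and 2 rose, with a median of -0.54. Their summed level was already lower in gp1-2 without bacteria, at 54280 to 57200 CPM against 94770 to 112400 in wild type, and with volatiles it was 35890 to 40430 against 93420 to 106500. The count called ranged from 13 without untreated gp1-2 replicate 2 to 30 without untreated wild-type replicate 3, and it was 41 without replicate 3 of every group.

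Antenna proteins, which bind chlorophyll around the reaction centres, led the group. LHCA1, an antenna of photosystem I, was at 2816, 2790 and 2880 CPM in untreated and 3080, 3044 and 3382 in treated wild type, and at 1369, 1480 and 1385 in untreated and 902, 869 and 923 in treated gp1-2. Its change was 0.16 ± 0.08 in wild type and -0.65 ± 0.08 in gp1-2, an interaction of -0.82 (adjusted p = 0.000877). LHB1B1, an antenna of photosystem II, rose in wild type from 373, 529 and 524 to 569, 635 and 613 CPM and fell in gp1-2 from 645, 699 and 619 to 354, 311 and 306 (interaction -1.36 ± 0.17, adjusted p = 0.000554). Untreated gp1-2 was above untreated wild type for LHB1B1, unlike for LHCA1. Near-identical copies (LHB1B1 and LHB1B2, the CAB genes) may share reads, so the level of each copy is uncertain. LHCB4.3, a minor antenna, also started higher in gp1-2, at 44.6, 44.8 and 45.8 CPM against 20.4, 19.7 and 20.6, and fell to 25.8, 24.9 and 29.9 (interaction -0.89 ± 0.14, adjusted p = 0.00249).

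Enzymes of carbon fixation were called as well. Of the Calvin cycle enzymes, SBPASE (sedoheptulose bisphosphatase) and GAPB (glyceraldehyde-3-phosphate dehydrogenase) were gained falls, with interactions of -0.73 ± 0.13 (adjusted p = 0.00567) and -0.68 ± 0.11 (adjusted p = 0.00413). RCA, the activase of Rubisco, and PRK, the kinase that regenerates its substrate, fell in both genotypes and fell more in gp1-2, RCA from 4197, 4073 and 4641 to 2940, 2758 and 2837 CPM in wild type and from 3173, 3407 and 2810 to 1310, 1299 and 1415 in gp1-2. PRK was called in 8 of the 12 fits that each left out 1 library and RCA in 11. CAB3 rose in both and rose less in gp1-2, by 0.95 ± 0.10 against 0.28 ± 0.10. Outside the list, CDSP32, a plastid thioredoxin of oxidative stress, and Lhca6, which joins photosystem I to the NDH complex, were the leading stronger falls, with interactions of -0.78 ± 0.12 (adjusted p = 0.00218) and -0.88 ± 0.14 (adjusted p = 0.00398). LrgB, which RefSeq leaves uncharacterized, went from 266, 266 and 250 to 193, 200 and 198 CPM in wild type and from 168, 167 and 162 to 71.8, 76.8 and 84.8 in gp1-2 (interaction -0.69 ± 0.11, adjusted p = 0.00419).

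**Figure D3:**
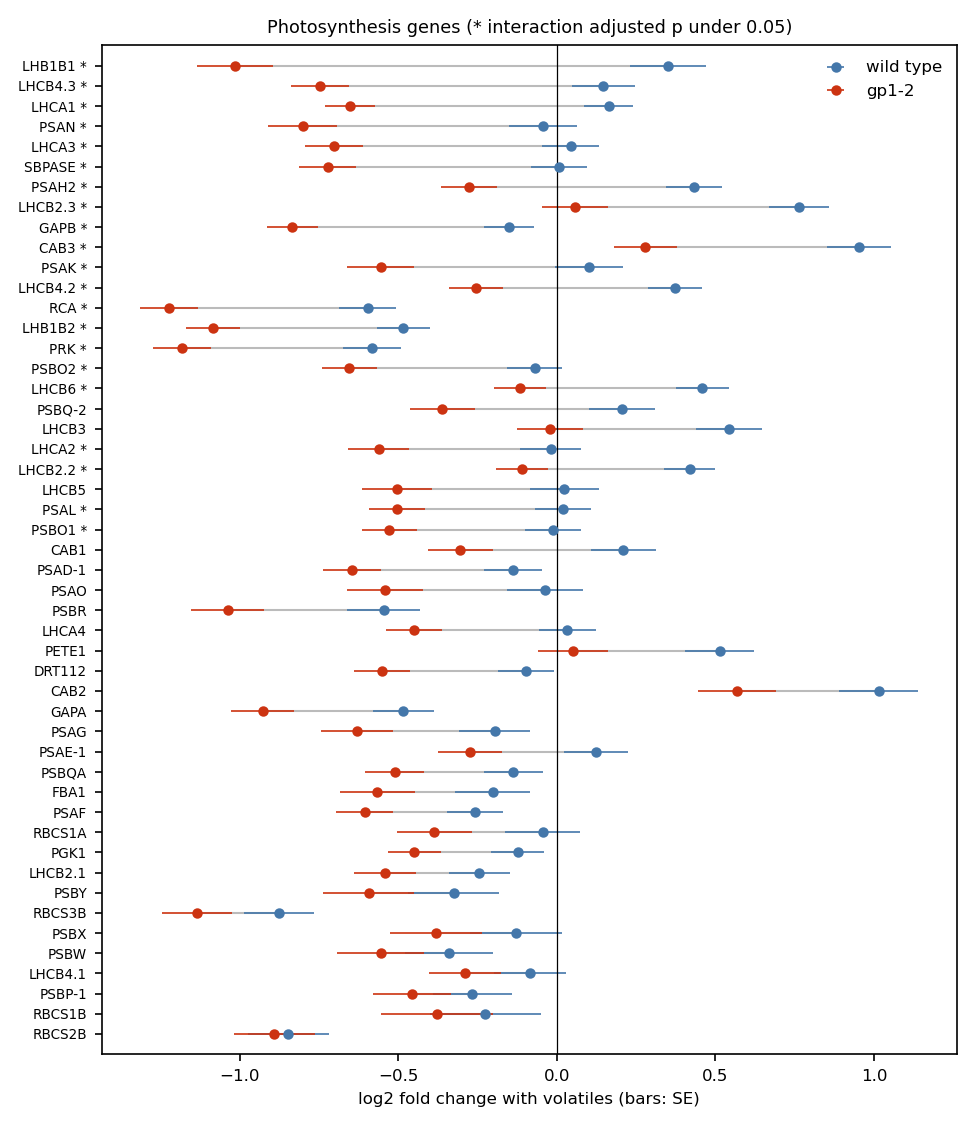
The log2 fold change with volatiles of the 49 photosynthesis genes in wild type (blue) and gp1-2 (red), with SE bars, ordered by their interaction; asterisks mark the 21 called. The red point lies to the left of the blue one in 49 of 49 genes.

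Upstream windows of PSAH2, a photosystem I subunit, and LHCB6, a minor antenna, are shown because the photosynthesis genes held light-response letters in a larger share than all genes. Both genes rose in wild type, while in gp1-2 PSAH2 fell and LHCB6 did not pass the test, with interactions of -0.71 ± 0.12 (adjusted p = 0.00637) and -0.57 ± 0.12 (adjusted p = 0.0152). The windows are chr1:19454548-19454797 (plus strand) and chr1:5447881-5448130 (minus) of TAIR10.1, 250 bases before the RefSeq gene start. The PSAH2 window overlaps the gene AT1G52220 and the LHCB6 window the genes AT1G15825 and AT1G15830. Capitals mark the G-box CACGTG and the GATA light element GATAAG on either strand.
PSAH2: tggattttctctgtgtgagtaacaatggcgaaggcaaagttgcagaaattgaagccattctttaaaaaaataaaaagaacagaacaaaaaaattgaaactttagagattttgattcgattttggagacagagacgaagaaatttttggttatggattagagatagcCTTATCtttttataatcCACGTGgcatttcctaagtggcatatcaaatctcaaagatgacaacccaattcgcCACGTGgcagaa
LHCB6: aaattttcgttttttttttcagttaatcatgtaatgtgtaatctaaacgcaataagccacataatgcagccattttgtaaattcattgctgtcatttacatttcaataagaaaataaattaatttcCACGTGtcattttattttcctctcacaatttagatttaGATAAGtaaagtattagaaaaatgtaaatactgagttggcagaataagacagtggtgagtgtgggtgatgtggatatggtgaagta

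CACGTG was in 9 of the 49 photosynthesis windows (18.4%) and in 7.23% of the 20653 windows, and GATAAG in 12 of 49 (24.5%) against 12.3%. These shares were not particular to photosynthesis: CACGTG was in 29.4% of the flavonoid windows, and GATAAG in 29.6% of the windows of genes that turned from rise to fall and in 26.4% of those of weaker falls. The 2 genes were picked because their windows hold both motifs.

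Of the 27 genes that rose in wild type and fell in gp1-2, DTX1 had the smallest p among those named. DTX1, a MATE efflux carrier of xenobiotics, was at 2.3, 1.68 and 1.72 CPM in untreated and 7.28, 6.05 and 5.69 in treated wild type, and at 38.4, 36.0 and 37.2 in untreated and 20.3, 18.4 and 16.6 in treated gp1-2 (interaction -2.74 ± 0.20, adjusted p = 6.8e-06). No groups overlapped. DTX1 (chromosome 2, bases 1334270 to 1336550 of TAIR10.1) and the lost rise AT2G04050 are both annotated as MATE carriers, and their gp1-2 levels differed: treated gp1-2 was above treated wild type for DTX1 and below it for AT2G04050. TDT, the vacuolar malate transporter, went from 26.0, 30.8 and 38.3 to 42.6, 49.9 and 48.9 CPM in wild type and from 69.4, 73.0 and 69.7 to 37.8, 41.9 and 38.8 in gp1-2 (interaction -1.42 ± 0.16, adjusted p = 0.000369). MAKR6, a membrane-associated kinase regulator, was a further reversal of this kind (-1.83 ± 0.20, adjusted p = 0.000236). Of 46 detoxification and oxidative signalling genes tested, 6 were called (13.0%, against 2.80% of genes tested), 5 of them below 0. Among those below 0, AER was called in 1 of the 12 fits that each left out 1 library and AT2G21640 in 3. ATAF1, above 0, was called in 11.

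Gained falls outside the plastid included GRP3S, a short glycine-rich wall protein, and PYL6, an abscisic acid receptor. GRP3S went from 961, 885 and 829 to 296, 285 and 260 CPM in gp1-2 and was at 272 to 445 in the 6 wild-type libraries (interaction -1.61 ± 0.23, adjusted p = 0.00153). PYL6 went from 27.6, 28.6 and 28.5 to 18.3, 17.7 and 16.1 CPM in gp1-2 and was at 21.7 to 28.0 in wild type (interaction -0.90 ± 0.13, adjusted p = 0.00174). Volatiles thus took GRP3S in gp1-2 to levels that overlap the low end of the wild-type range and PYL6 below that range.

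Late anthocyanin genes rose strongly in both genotypes, and those with an interaction rose less in gp1-2. Of 17 flavonoid and anthocyanin genes tested, 4 were called (23.5%, against 2.80% of genes tested), each below 0. The interaction was below 0 in 17 of 17, with a median of -0.73. LDOX, the anthocyanidin synthase, went from 4.46, 3.15 and 4.01 to 87.4, 70.3 and 102 CPM in wild type and from 5.95, 5.20 and 6.14 to 44.6, 41.0 and 42.0 in gp1-2 (interaction -1.60 ± 0.21, adjusted p = 0.000877). The untreated groups of LDOX lay close without overlapping, and the treated groups stood further apart, with wild type higher. AT4G14090, a UDP-glycosyltransferase by its RefSeq name, went from 2.16, 2.08 and 2.29 to 39.4, 38.4 and 40.2 CPM in wild type and from 3.69, 2.65 and 4.18 to 29.6, 27.0 and 24.7 in gp1-2 (interaction -1.23 ± 0.21, adjusted p = 0.00525). TT7, the flavonoid 3′-hydroxylase, had an interaction of -0.73 ± 0.12 (adjusted p = 0.00459). DFR, the preceding reductase, rose by 5.03 ± 0.22 in wild type and by 3.77 ± 0.20 in gp1-2, and its interaction of -1.26 (adjusted p = 0.0385) was called in 3 of the 12 fits that each left out 1 library. TT4, chalcone synthase, had an interaction of -0.17 ± 0.16 that did not pass. It lies near the upper end of the 17 values, which ran from -1.60 to -0.16.

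**Figure D4:**
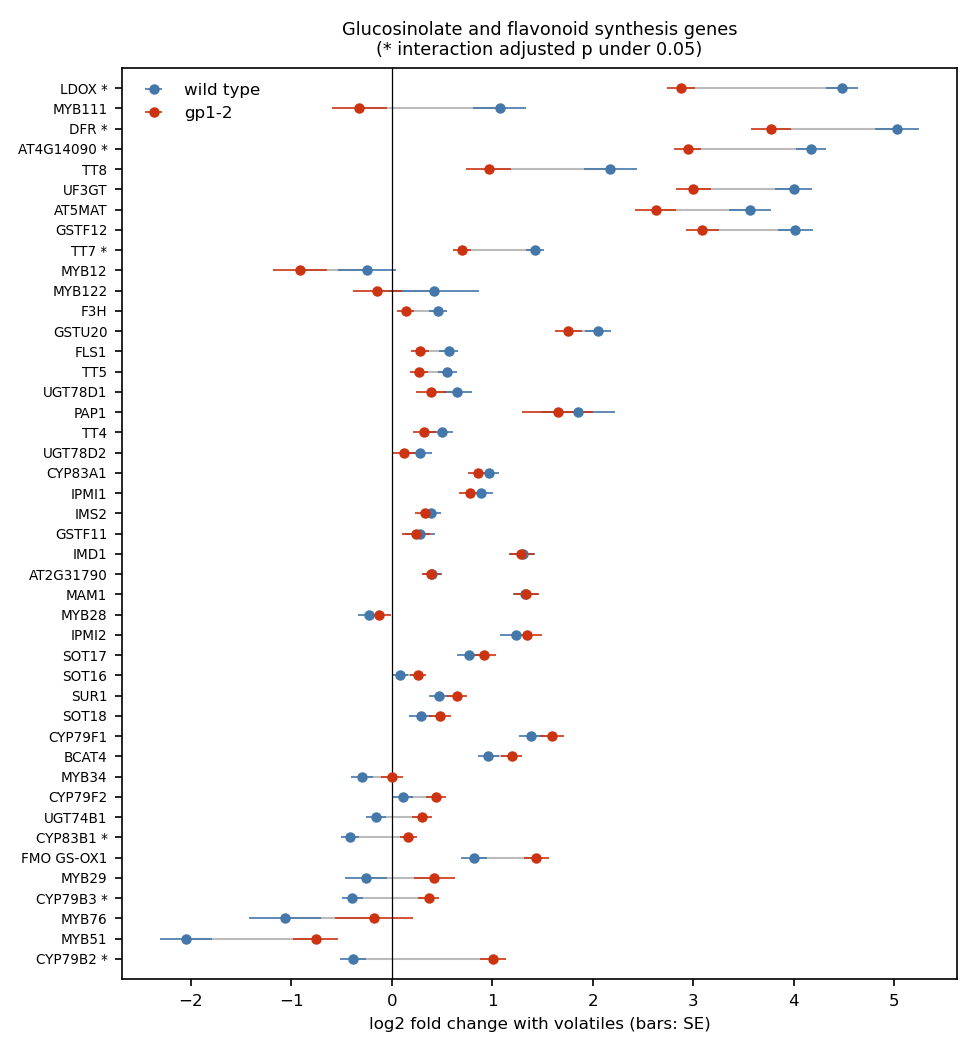
The log2 fold change with volatiles of 44 glucosinolate and flavonoid genes in wild type (blue) and gp1-2 (red), with SE bars, ordered by interaction; asterisks mark the 7 called. The late anthocyanin genes LDOX, DFR and AT4G14090 rise less in gp1-2, and CYP79B2 and CYP79B3 cross from a fall to a rise.

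HA11, a plasma membrane proton pump, was the leading weaker rise. It went from 35.9, 32.6 and 34.7 to 87.6, 93.6 and 90.0 CPM in wild type and from 31.5, 30.4 and 30.9 to 43.8, 43.8 and 39.5 in gp1-2 (interaction -0.94 ± 0.11, adjusted p = 0.000411). CRK18, a cysteine-rich receptor-like kinase, was the leading weaker fall, from 34.7, 39.3 and 31.9 to 12.6, 12.3 and 10.6 CPM in wild type and from 100, 119 and 96.4 to 86.1, 89.4 and 82.8 in gp1-2 (interaction 1.29 ± 0.15, adjusted p = 0.000369). RAB18, a dehydrin induced by abscisic acid, fell by 3.31 ± 0.11 on the log2 scale in wild type and by 2.44 ± 0.10 in gp1-2 (interaction 0.87 ± 0.15, adjusted p = 0.00531). Its untreated levels were 41.1 to 44.5 CPM in wild type and 45.6 to 53.7 in gp1-2. Of the 11 cold and dehydration genes tested, 3 were called (27.3%, against 2.80% of genes tested), RAB18 among them. The others were NCED3, the abscisic acid synthesis enzyme, a lost fall (1.94 ± 0.46, adjusted p = 0.036), and ERD10, a dehydrin, a lost rise (-0.53 ± 0.13, adjusted p = 0.0482). NCED3 and ERD10 were each called in 3 of the 12 fits that left out 1 library.

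Of 22 cysteine-rich and wall-associated kinases tested, 4 were called, against 2.80% of genes tested. They were CRK18 above 0, and CRK40, WAK1 and WAK2 below 0 as lost rises. Over the 22 the median interaction was 0.494, with 13 values above 0 and 9 below 0. The list as a whole thus did not lean the way of most of its calls. CRK40 was called in 6 of the 12 fits that each left out 1 library. WAK1 (-1.45 ± 0.29, adjusted p = 0.0132) lies close in sequence to WAK2, and their reads may be shared. Of 18 phosphate starvation genes tested, 1 was called (5.56%, against 2.80% of genes tested). It was PPCK1, the kinase of phosphoenolpyruvate carboxylase, a gained rise (1.00 ± 0.21, adjusted p = 0.0196) called in 9 of those 12 fits.

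Among the 7 stearoyl-ACP desaturase genes, 2 had an interaction (28.6%, against 2.80% of genes tested). SSI2 (AT2G43710), the main desaturase of leaves, was at 120, 119 and 129 CPM in untreated and 181, 167 and 180 in treated wild type, and at 586, 705 and 746 in untreated and 682, 698 and 551 in treated gp1-2. Its rise of 0.52 ± 0.11 in wild type faced -0.08 ± 0.11 in gp1-2, and the interaction of -0.60 ± 0.15 (adjusted p = 0.0484) was called in 2 of the 12 fits that each left out 1 library. AT5G16230 was a gained rise, from 10.5, 11.4 and 12.8 to 22.0, 22.2 and 23.3 CPM in gp1-2, with 5.54 to 7.46 in wild type (interaction 1.04 ± 0.18, adjusted p = 0.0062). None of the 7 transcripts was absent from gp1-2, and gene-level counts do not show whether a transcript spans an insertion.

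A log2 interaction compares ratios, and where the starting levels differ the change in CPM can have the other sign. That was so for 44 of the 580 genes (7.59%), 20 of them weaker falls, 12 stronger falls, 4 lost falls (BCB among them), 3 lost rises (WAK1 and GSTF6 among them), 4 weaker rises and 1 stronger rise. WRKY70 is a further example: its mean fell by 26.7 CPM in wild type and by 129 CPM in gp1-2, while the fall as a ratio was smaller in gp1-2.

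Several gene groups had no gene with an interaction in the main edgeR fit, which "by edgeR" stands for here. An edgeR fit with a block for the replicate number called 7 sulphate and 4 cell wall loosening genes. It also called 1 each of the hypoxia, nitrate, iron storage and morning clock genes. Of genes tested, 14.8% rose in wild type and 14.7% in gp1-2. Of 19 core hypoxia genes tested, 15 rose in wild type and 16 in gp1-2. For the interaction 0 of them were called by edgeR (3 at an unadjusted p under 0.05, 1 by DESeq2, 0 by limma-voom), with values between -0.60 and 0.77. Of 18 sulphate deficiency genes, 13 rose in wild type and 15 in gp1-2, and 0 were called by edgeR (10 at an unadjusted p under 0.05, 3 by DESeq2, 1 by limma-voom). Their median change was 2.29 in wild type and 1.74 in gp1-2 and their median interaction -0.60. The nearest to the threshold was SHM7, a serine hydroxymethyltransferase gene, at -0.77 ± 0.20 (adjusted p = 0.0549). Without untreated wild-type replicate 3, 6 of the 18 were called. No cell cycle gene of 24 (3 at an unadjusted p under 0.05), no chaperone of the endoplasmic reticulum of 20 (3) and no evening clock gene of 10 (2) was called, by DESeq2 or limma-voom either. The nitrate genes (0 of 22, 4 unadjusted, 0 by DESeq2 and limma-voom), the cell wall loosening genes (0 of 22, 5 unadjusted, 2 by DESeq2, 0 by limma-voom), the morning clock genes (0 of 8, 1 unadjusted) and the iron storage genes (0 of 6, 1 unadjusted) had none by edgeR, and the last pair of lists had 0 by DESeq2 and limma-voom as well. A gene below the threshold is not shown to respond alike: the median 95% interval of the interaction over genes tested ran from -0.43 to 0.40.

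**Figure D5:**
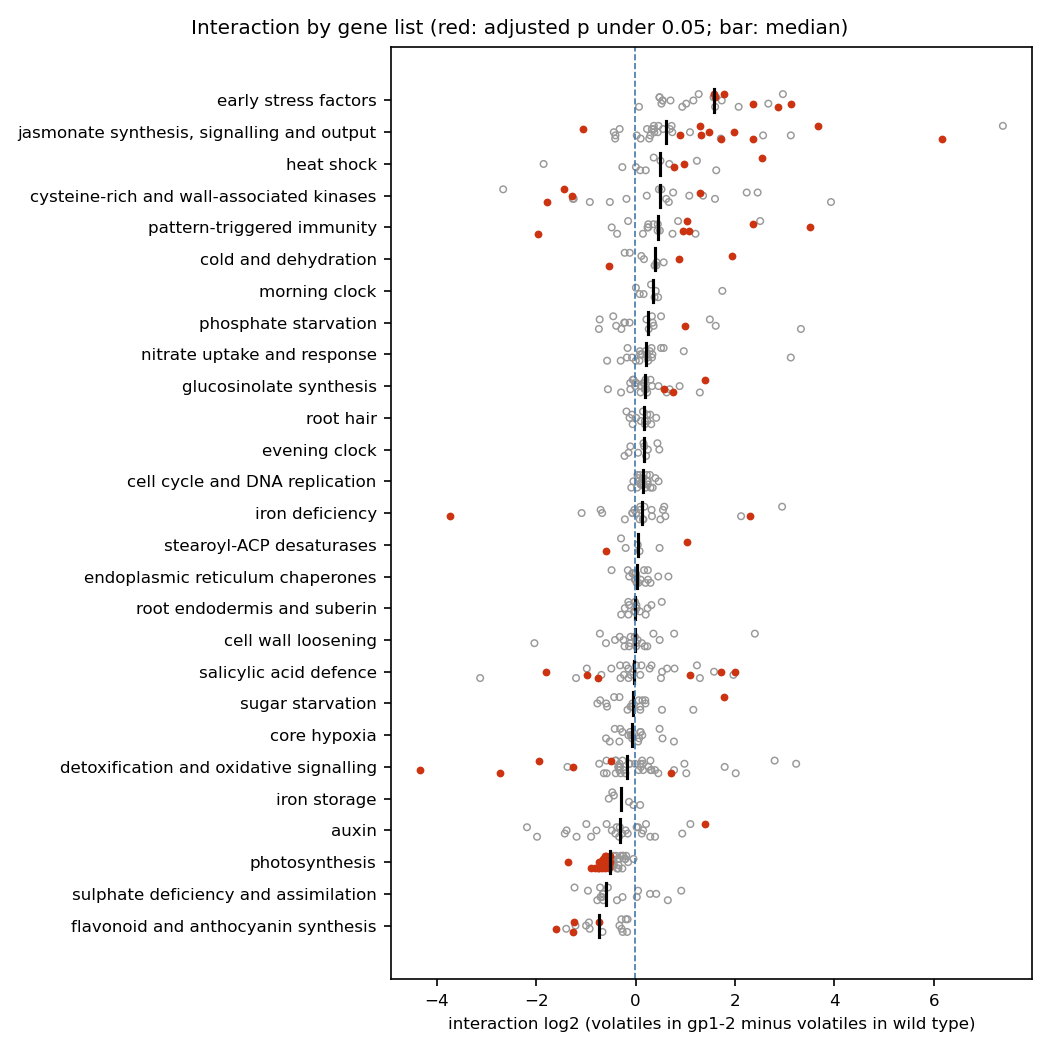
Interaction log2 values of the tested members of 27 gene lists, ordered by their median (black bar); red points have an adjusted p under 0.05 and the dashed line is the median of the 20736 genes tested. The medians of the early stress factors (1.57) and jasmonate genes (0.62) lie to the right of that line, and those of the photosynthesis (-0.51) and flavonoid genes (-0.73) to its left.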

How the data were processed

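The authors deposited 1 table of raw read counts per gene for the 12 libraries, with no normalization. Per the submitters' processing notes, the tools were Trimmomatic 0.36, HISAT2 2.1.0 and HTSeq 0.9.1 and the build was TAIR10; the annotation and the strand setting are not given in the sources used here. Of 33602 gene identifiers, 32835 were named from RefSeq's TAIR10.1 annotation, the source of the symbols, products and upstream sequences.

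Each library was placed in its group by its label. In R 4.3.3, edgeR 4.0.16 kept 20736 genes (filterByExpr), scaled the counts by TMM and fitted 1 coefficient per group over the 12 libraries. The quasi-likelihood F test gave every adjusted p in the text (Benjamini-Hochberg over all genes tested, called under 0.05), and the SE is the log2 fold change divided by the square root of F. CPM use TMM library sizes. The p-values measure the spread between these samples.

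The gene members, lists and classes were chosen with earlier results of these data known. Named genes were called genes that had a RefSeq symbol and averaged 5 CPM or more, the 4 with the smallest p in each lost, gained and reversed class and the 3 in each of the stronger and weaker classes, together with list members and families of at least 5 genes tested and 3 called. Replicate numbers were not taken as pairs: over 18 same-number pairs the deviations from the group means correlated between -0.03 and 0.25, and 9 pairs were at or under 0.1, the limit set for pairing. Alternatives were RLE and upper-quartile scaling, no filter, DESeq2 1.42.0, limma-voom (limma 3.58.1), a replicate block, thinned counts, leaving out the third replicates and leaving out each library. On simulated counts of 20550 genes, 74% of genes changed by a log2 of 1 and 100% of those changed by 2 were called, with 2.79% false calls. Changes were given to 200 genes that averaged 5 CPM or more. Libraries were drawn independently, and the groups did not differ otherwise. These rates therefore need not hold for genes with fewer counts or for the real libraries.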

Additional observations from a re-analysis of the deposited data

Results flagged for a closer look

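The difference between the genotypes in their response to volatiles was itself the test, so the 580 genes called and the genes named by rule are all results in which 2 groups differ under the same contrast. Each of the 30 genes below was called without any 1 of the 12 libraries and under the 8 other settings. These fits reuse the libraries in which the genes were chosen for a small p, so they are no separate support.

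Below 0 among responses lost in gp1-2 were WAK2 at -1.79, NAC044 at -3.11, CYP71A12 at -1.96 and HEMA1 at -1.08 on the log2 scale. Above 0 were the lost falls BCB (2.16), RD26 (2.03), JAZ1 (1.72) and NHL3 (1.18). Gained rises were SBT3.5 (1.21), HAI1 (1.77), DIN9 (1.79) and scpl20 (1.17), and gained falls were LHCA1 (-0.82), GRP3S (-1.61), PYL6 (-0.90) and LHCB4.3 (-0.89).

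Reversals from rise to fall were DTX1 (-2.74), MAKR6 (-1.83), TDT (-1.42) and LHB1B1 (-1.36), and reversals from fall to rise were PLA2A (2.06), DFL1 (1.4), PRXCB (1.17) and PR5 (1.99). Stronger falls in gp1-2 were CDSP32 (-0.78), Lhca6 (-0.88) and LrgB (-0.69). Weaker responses were CRK18 (1.29), HA11 (-0.94) and IGMT1 (1.19).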

How the results depend on the processing

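Counts of genes called depended on the fit: 54.8% to 99.8% of the 580 genes were called under each alternative. Of the 580, 578 to 580 kept their sign. They were chosen in the same libraries that the alternatives reuse, so kept signs are no separate support for their directions. DESeq2 called 941 genes (544 above 0), of which 298 were lost, 310 gained, 117 stronger and 128 weaker. The labels' replicate numbers were not taken as pairs, since 9 of 18 same-number pairs correlated at or under 0.1. Still, same-number pairs ran from -0.032 to 0.253 with a median of 0.10, and different-number pairs from -0.266 to 0.17 with a median of -0.06. The highest was between replicates 3 of treated wild type and treated gp1-2, and the 3 pairs of untreated wild type with untreated gp1-2 were at 0.113 to 0.218. Of the 12 libraries, 9 correlated best with their own number, a hint from the data and not the design. The labels do not say whether the numbers mark pairs. The fit with the replicate block called 1038 genes (518 above and 520 below 0), of which 291 were lost, 308 gained, 138 stronger and 195 weaker. With the block 33 photosynthesis genes, 14 early stress factors, 7 sulphate and 4 cell wall loosening genes were called, and 1 each of the hypoxia, nitrate, iron storage and morning clock genes. Without the third replicate of every group 257 were gained, 154 stronger and 133 weaker. Leaving out 1 library at a time gave 329 to 615 genes called (189 to 348 above and 132 to 267 below 0), with 107 to 182 lost, 84 to 182 gained, 41 to 78 reversed, 30 to 101 stronger and 37 to 134 weaker. RLE scaling (573), upper-quartile scaling (544), no filter (647), limma-voom (554) and thinned counts (508) kept the total within 1.5 times. The causes were not tested. Of single genes and list counts, 2165 values were unchanged in call or size, 235 lost their call, 80 moved and 0 reversed. Depth limits genes with few counts such as FRO2 and JRG21 in wild type.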

Other observations

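Several groups of abscisic acid, ubiquitin and chloroplast genes were drawn up after their values had been seen and are given as values without support from the choice. For background, 2.80% of genes tested had an interaction. Of 7 clade A protein phosphatases tested, which brake abscisic acid signalling, 2 had an interaction, HAI1 and HAB1 (0.74 ± 0.16, adjusted p = 0.0188), and 7 of 7 had a value above 0. Of 9 abscisic acid receptors, which inhibit those phosphatases, 1 was called, PYL6, and it was below 0. Of 3 SnRK2 kinases, which the phosphatases hold inactive, 1 was called: OST1, a lost rise (-0.65 ± 0.14, adjusted p = 0.0223), beside SNRK2.2 (-0.08 ± 0.11) and SNRK2.3 (0.17 ± 0.14), which did not pass.

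Of the 4 RGLG ubiquitin ligases listed, 3 fell in wild type and rose in gp1-2, and the list may not hold the whole family. RGLG1 had an interaction of 0.91 ± 0.17 (adjusted p = 0.00918), RGLG2 of 0.73 ± 0.15 (adjusted p = 0.0143) and RGLG3 of 1.01 ± 0.20 (adjusted p = 0.0124), while RGLG4 stood at -0.18 ± 0.15 (adjusted p = 0.647). RGLG ligases are known in Arabidopsis for marking clade A phosphatases for degradation.

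Among 15 chlorophyll synthesis genes tested, HEMA1, CHLI1 (-0.45 ± 0.11, adjusted p = 0.0472) and CRD1 (-0.49 ± 0.11, adjusted p = 0.0246) were called, each a lost rise, and 14 of 15 were below 0. The NDH complex, which carries electrons around photosystem I, had 6 of 17 genes called and 17 of 17 below 0, with a median of -0.56. Of these 17, 12 fell in wild type (15.3% of genes tested fell) and 16 in gp1-2 (17.6%). Without bacteria their median log2 difference, gp1-2 against wild type, was -0.81. In CPM some had the opposite sign: the mean of PnsB1, a stronger fall, changed by -108.5 in wild type and by -90.54 in gp1-2. The members NdhS (-0.96 ± 0.16, adjusted p = 0.00424) and PnsB2 (-0.80 ± 0.14, adjusted p = 0.00715) were gained falls.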
